A study of Danio rerio with 4 samples.

Results

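T-box genes encode transcription factors that bind DNA through a shared domain, the T-box, and several of them direct mesoderm formation in the vertebrate gastrula. In zebrafish, Nodal signals at the embryo margin switch on tbxta (Brachyury, mutated in no tail) and tbx16 (mutated in spadetail), FGF and Wnt signals keep them on, and msgn1, a basic helix-loop-helix factor, acts with tbx16 as cells leave the margin to become paraxial mesoderm. Eomesodermin differs from these in that its mRNA is loaded into the egg, where it takes part in endoderm and mesoderm induction with Nodal, and Tbr1 is known in the mouse as a factor of cortical neurons.

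The members were the 6 gene symbols tbxta, tbx16, tbx6, eomesa, TBR1 and msgn1, chosen by name. Of the 31870 gene identifiers in the deposited table, 5 carried a member symbol, 1 each for tbxta, tbx16, tbx6, TBR1 and msgn1. The symbol eomesa was on none. It was represented by 2 identifiers that both carry the human form EOMES, either of which may be eomesa, and both are described as EOMES and left out of member counts. TBR1 is also in human form. RefSeq gives tbr1 as an earlier name of tbr1b, and tbr1a has an identifier of its own. For tbx6, RefSeq gives the earlier name tbx24, and it lists tbx6 as an earlier name of the gene now called tbx16l.

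RNA came from zebrafish embryos at 0 and 6 hours post fertilisation (hpf), either wild type (WT) or from the line labelled Mybx1, which the series describes as a maternal mutant of ybx1, a gene for an RNA-binding cold-shock protein. The labels state neither the ybx1 allele nor the number of embryos or clutches in a library. Each of the 4 groups was 1 library of total RNA depleted of ribosomal RNA, so no difference below has a replicate check and no p-value was computed. Between 6042830 and 7570070 reads lay behind the values of a library.

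Levels are FPKM (fragments per kilobase of gene, scaled to library size), by which genes can be compared within a library. Since FPKM is a share of each library, differences between libraries depend on the scaling used. In brackets after a fold is a 95% interval that covers counting error only. Counted genes are those with a mean FPKM of 1 or more over the pair of libraries compared. A gene is said to have risen or fallen, or to be higher or lower, only when it was at least 2-fold apart on the log2(FPKM + 1) scale. Whether fewer cells of a type or less RNA per cell lay behind a low level cannot be told apart in embryos used whole.

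The targeted gene, listed as YBX1, was 28.5-fold lower in Mybx1 than in WT at 0 hpf (23.2 to 35.4) and 42.2-fold lower at 6 hpf (38.0 to 47.0). All 15 matched egg markers were above 1 FPKM in both 0 hpf libraries, with summed levels of 9025 FPKM in WT and 8408 in Mybx1. By 6 hpf the sum was 200.6 in WT and 4295 in Mybx1. The part of this egg RNA in the results below was not tested.

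The T-box genes tbxta and tbx16 were the members with the widest gap between genotypes at 6 hpf. The level of tbxta, which specifies notochord and posterior mesoderm, was 0 FPKM in WT at 0 hpf, 325 in WT at 6 hpf, 0.27 in Mybx1 at 0 hpf and 0.22 in Mybx1 at 6 hpf. Only the WT library at 6 hpf was high, and the Mybx1 values rested on 3 reads at 0 hpf and 2 at 6 hpf. In WT, tbxta rose at least 1256-fold over the level that 3 reads would give at 0 hpf. At 6 hpf it was 1504-fold lower in Mybx1 (416 to 12427). On the log2(FPKM + 1) scale this difference was -8.07, rank 2 from the lowest of the 15790 genes counted.

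The level of tbx16, which cells need to leave the margin and enter the paraxial mesoderm, was 0 FPKM in WT at 0 hpf, 107 in WT at 6 hpf, 0 in Mybx1 at 0 hpf and 3.61 in Mybx1 at 6 hpf. Both 0 hpf libraries had no read, which allows up to 0.080 FPKM in WT and 0.083 in Mybx1 at 3 reads. Unlike tbxta, tbx16 did rise in Mybx1, at least 43.5-fold over the level of 3 reads, on 108 reads at 6 hpf. Its rise in WT was at least 1337-fold, and the Mybx1 level at 6 hpf was 29.6-fold below that of WT (24.5 to 36.3).

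Of the mesoderm genes, msgn1 was already above WT in Mybx1 at 0 hpf. Its level was 0.13 FPKM in WT at 0 hpf, 67.9 in WT at 6 hpf, 11.7 in Mybx1 at 0 hpf and 10.9 in Mybx1 at 6 hpf. The WT library at 0 hpf was low, at 2 reads, the WT library at 6 hpf was high, and both Mybx1 libraries lay between them. In WT msgn1 rose 506-fold (140 to 4189), whereas in Mybx1 the 0 hpf level was 1.07 times the 6 hpf level (0.845 to 1.35), an interval that includes 1. Mybx1 was 87.1-fold higher than WT at 0 hpf (23.7 to 725) and 6.22-fold lower at 6 hpf (5.16 to 7.54). Of the members it was the one whose difference between genotypes was past 2-fold at both stages and in opposite directions.

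The somite gene tbx6, known for setting segment boundaries later in development, was near the limit of detection. It was at 0 FPKM in both 0 hpf libraries and in Mybx1 at 6 hpf, and at 0.42 FPKM in WT at 6 hpf, on 8 reads. The WT level at 6 hpf was at least 2.58-fold above what 3 reads would give in the Mybx1 library, and the gene was counted in no comparison.

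**Figure D1:**
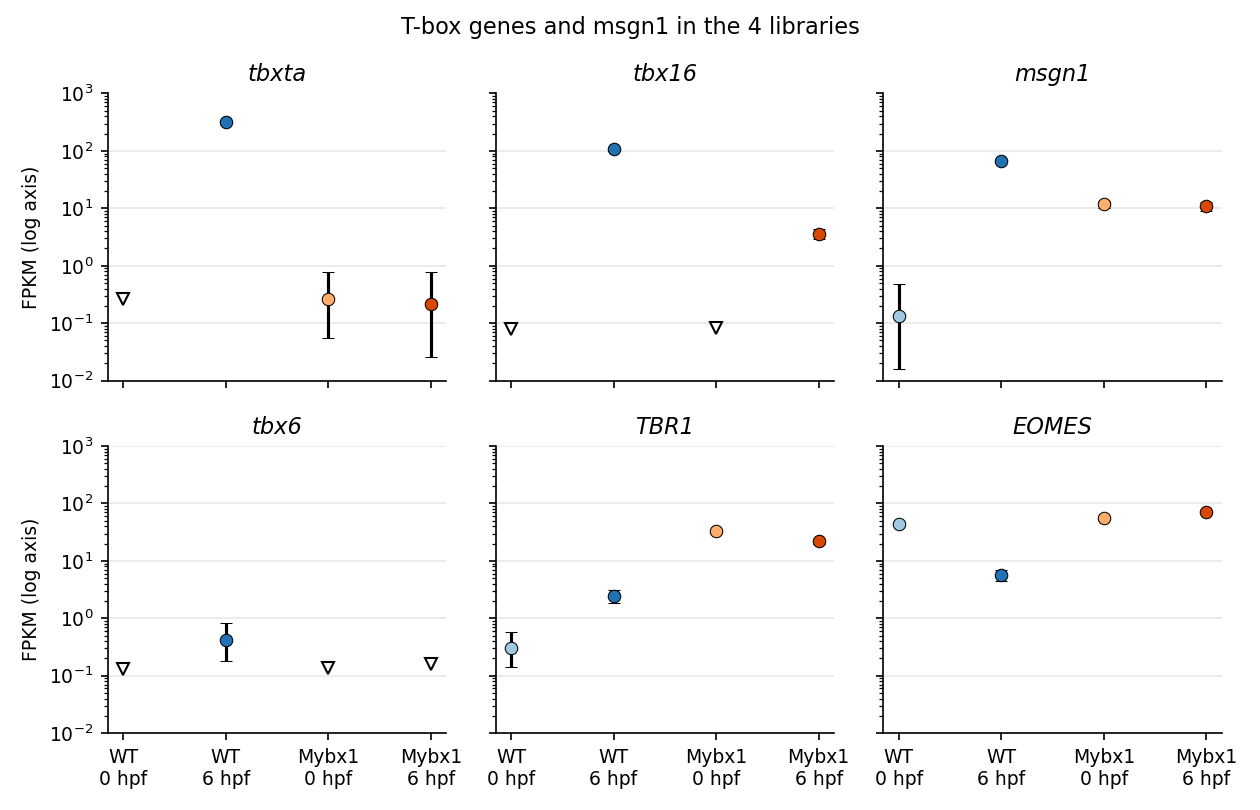
FPKM (log axis) of tbxta, tbx16, msgn1, tbx6, TBR1 and the abundant EOMES identifier in the 4 libraries, 1 library per point. Bars are 95% counting intervals, and open triangles mark libraries with 0 reads, drawn at the level 3 reads would give. The upper row shows tbxta and tbx16 high in WT at 6 hpf alone, and msgn1 at 11.7 and 10.9 FPKM in the Mybx1 libraries. TBR1 is high in both Mybx1 libraries, and EOMES is low in WT at 6 hpf alone.

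EOMES was the most abundant T-box transcript in both 0 hpf libraries. The identifier ENSDARG00000006640 was at 44.0 FPKM in WT at 0 hpf, 5.67 in WT at 6 hpf, 55.8 in Mybx1 at 0 hpf and 70.3 in Mybx1 at 6 hpf. The WT library at 6 hpf was low. At 0 hpf Mybx1 was 1.27-fold above WT (1.16 to 1.39), short of 2-fold. From 0 to 6 hpf it fell 7.76-fold in WT (6.22 to 9.80), while in Mybx1 the 6 hpf level was 1.26-fold above the 0 hpf level (1.15 to 1.37). At 6 hpf Mybx1 was 12.4-fold higher (9.95 to 15.6). Of the 15 egg markers all fell across the stages in WT, where 41.1% of all counted genes fell. In Mybx1 8 of them did, where 7.10% of all counted genes fell. The part of this egg RNA in the EOMES levels was not tested. The other EOMES identifier, ENSDARG00000104243, had at most 3 reads in a library and reached 0.18 FPKM at most.

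TBR1 was the member furthest above WT in Mybx1 at 0 hpf. Its level was 0.31 FPKM in WT at 0 hpf, 2.45 in WT at 6 hpf, 32.6 in Mybx1 at 0 hpf and 21.9 in Mybx1 at 6 hpf. Both Mybx1 libraries lay above both WT libraries. At 0 hpf Mybx1 was 106-fold higher (55.4 to 232), on 918 reads against 9, and this difference of 4.68 on the log2(FPKM + 1) scale had rank 2 from the top of the 13811 genes counted, beside rank 12 for msgn1. At 6 hpf Mybx1 was 8.93-fold higher (6.81 to 11.9). In WT TBR1 rose 7.95-fold (3.92 to 18.2), a call that is lost with a pseudocount of 5, whereas in Mybx1 the 6 hpf level was 1.49-fold below that of 0 hpf (1.34 to 1.66).

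Because TBR1 is known for neurons, markers of brain and neurons are given beside it. Of 12 matched markers, 1 reached an FPKM of 1 in WT at 0 hpf and 2 did in Mybx1 at 0 hpf, with summed levels of 3.92 and 16.7 FPKM. At 6 hpf the sums were 12.9 in WT and 20.3 in Mybx1. The neurotrophin gene BDNF, with 0 reads in WT at 0 hpf and 108 in Mybx1, was at least 37.3-fold higher in Mybx1 there. BDNF alone made up most of the Mybx1 sum at both stages, so the sums do not show a rise of the markers as a group. The 6 hpf levels of BDNF were 13.9 FPKM in Mybx1 against 1.04 in WT, while those of OTX2 were 0.0938 against 9.35. Read by level alone, 7 of the 12 markers were above WT in Mybx1 at 0 hpf, 3 were below and 2, NEUROD1 and NEUROD4, were at 0 in both. Those above besides BDNF were NEUROD2, at 0.0824 FPKM in WT and 1.11 in Mybx1 (1 and 13 reads), OTX2 (1 and 8 reads), GAD2 (6 and 13), emx3 (4 and 10), EMX2 (1 and 5) and ELAVL3 (0 and 1). Those below included SYT1 (32 and 12 reads) and ELAVL4 (5 and 4). Over all 21474 genes above 0 in either 0 hpf library, the median log2(FPKM + 1) difference was 0.08. Several of the markers rest on few reads, so the tally is not read as a trend. The part of brain cells and neurons in the TBR1 levels was not tested.

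**Figure D2:**
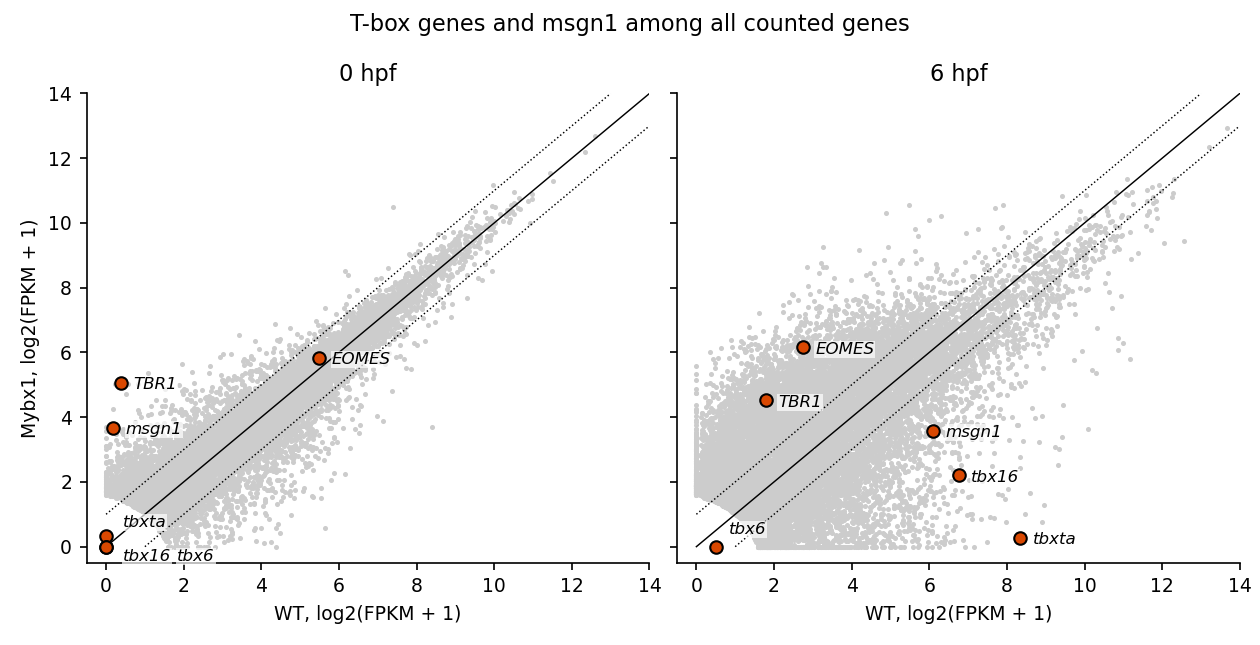
Levels in Mybx1 against WT at 0 hpf and 6 hpf, log2(FPKM + 1) on both axes, for all counted genes (grey) and for the members and the abundant EOMES identifier (orange). The solid line marks equal levels and the dotted lines 2-fold. At 0 hpf TBR1 and msgn1 stand above the grey cloud near the left edge, and at 6 hpf tbxta, tbx16 and msgn1 lie below the lines and EOMES and TBR1 above them.

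Of the 5 members, 4 were counted in WT at 6 against 0 hpf and all 4 rose, where 24.2% of all 15031 counted genes rose, 41.1% fell and 65.3% did either. In Mybx1 3 were counted and 1, tbx16, rose, where 7.67% of 14790 genes rose, 7.10% fell and 14.8% did either. At 0 hpf 2 were counted and both were higher in Mybx1, where 8.85% of 13811 genes were, 6.70% were lower and 15.6% were either. At 6 hpf 4 were counted, of which TBR1 was higher, where 38.2% of all genes were, and tbxta, tbx16 and msgn1 were lower, where 20.8% were, with 59.0% of all genes either. A member near 0 in 1 library is counted only through the other, so it had to differ, and these counts describe the members without supporting a direction. The same limit holds for the counts of the gene lists. The median difference of all counted genes was -0.57 for WT and -0.08 for Mybx1 across the stages, and 0.07 at 0 hpf and 0.49 at 6 hpf between genotypes. With median-ratio scaling, rises made up 56.2% of all WT stage calls in place of 37.0%, and higher genes 42.2% of the 6 hpf calls in place of 64.8%, and the member counts were the same under it.

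EOMES led the T-box family in 3 of the 4 libraries, and tbxta and tbx16 led it in WT at 6 hpf. Of 24 identifiers with a T-box symbol, 2 reached an FPKM of 1 in WT at 0 hpf, 9 in WT at 6 hpf, 4 in Mybx1 at 0 hpf and 5 in Mybx1 at 6 hpf. Their summed level was 54.2 FPKM in WT at 0 hpf and 493 in WT at 6 hpf, against 98.5 and 107 in Mybx1. In WT, EOMES made up 81.3% of the sum at 0 hpf and 1.19% at 6 hpf, when tbxta made up 66.0% and tbx16 21.7%. In Mybx1, EOMES made up 56.7% at 0 hpf and 65.8% at 6 hpf, TBR1 33.1% and 20.5%, and tbxta 0.272% and 0.202%. The share of tbx16 in Mybx1 at 6 hpf was 3.38%.

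**Figure D3:**
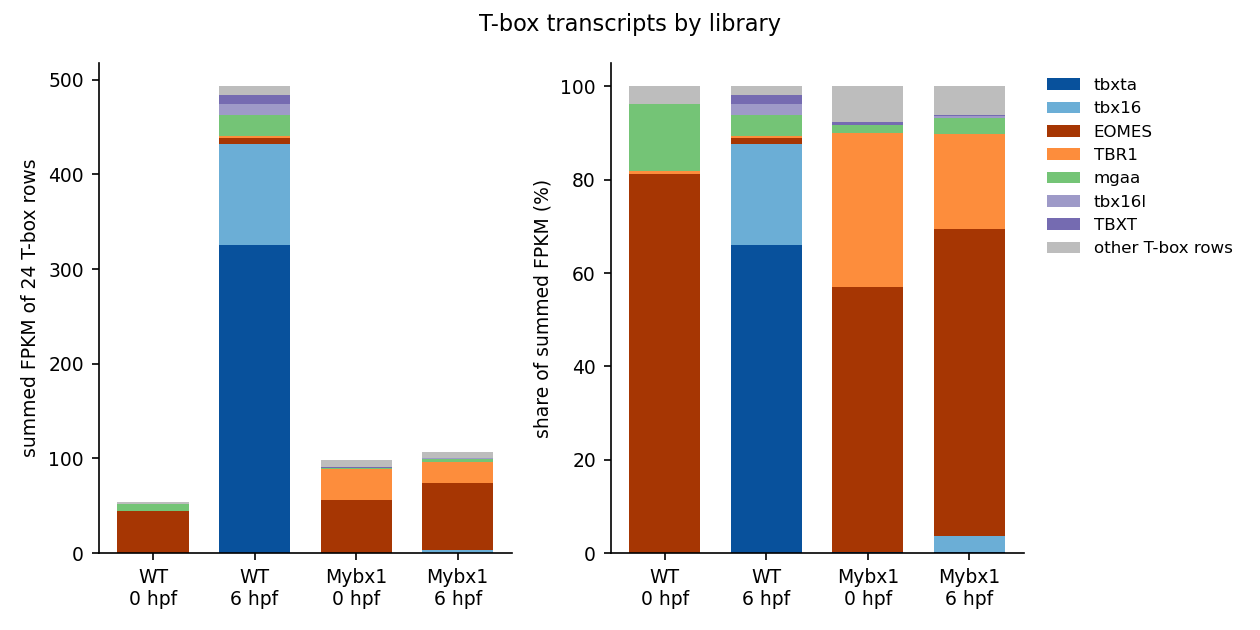
FPKM of 24 T-box identifiers in each library, stacked as sums (left) and as shares of the sum in % (right), with 1 library per bar. EOMES (brown) leads in WT at 0 hpf and in both Mybx1 libraries, with TBR1 (orange) next in Mybx1, while tbxta and tbx16 (blue) make up 66.0% and 21.7% of the WT bar at 6 hpf.

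Of the 18 other T-box identifiers, 6 reached an FPKM of 1 in a library. The identifier TBXT, the human form of Brachyury, went from 0 to 9.52 FPKM in WT and was at 0.52 and 0.11 in Mybx1, 91.0-fold below WT at 6 hpf (15.9 to 3633). The gene tbx16l, a relative of tbx16, rose from 0.043 to 12.1 FPKM in WT, 281-fold (50.0 to 11163), with 0.044 and 0.54 in Mybx1, 22.5-fold lower at 6 hpf, which is -3.09 on the log2(FPKM + 1) scale (-3.40 to -2.68). TBX1, known for the pharyngeal arches, was at 0.069 and 3.92 FPKM in WT and at 0.36 and 0.17 in Mybx1, 22.8-fold lower at 6 hpf (5.96 to 193). For all 3 the WT library at 6 hpf stood apart from the rest, as it did for tbxta.

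Both Mybx1 libraries differed from WT in the same direction for mgaa and TBX20. The gene mgaa, whose product joins a T-box to a Max-binding domain, was at 7.75 FPKM in WT at 0 hpf, 22.1 in WT at 6 hpf, 1.65 in Mybx1 at 0 hpf and 3.61 in Mybx1 at 6 hpf. It was 4.70-fold lower in Mybx1 at 0 hpf (3.58 to 6.26) and 6.14-fold lower at 6 hpf (5.04 to 7.53). TBX20, known for heart development, had 0.87 and 0.68 FPKM in WT against 4.96 and 3.66 in Mybx1, 5.70-fold higher at 0 hpf (3.20 to 10.9) and 5.39-fold at 6 hpf (2.61 to 12.5). An identifier listed as TBX2, ENSDARG00000006120, reached 1.45 FPKM in WT at 6 hpf and had at most 1 read in the other libraries. Among the 12 remaining identifiers the highest level was 0.922 FPKM. On the list of other T-box genes, which holds some of these, 13 were matched. In WT 3 of 3 counted rose, where 24.2% of all counted genes rose. In Mybx1 neither of 2 counted moved past 2-fold (median 0.22), where 7.67% of all counted genes rose. Of these mgaa was 2.19-fold higher at 6 hpf by FPKM (1.60 to 3.02), or 0.80 on the log2(FPKM + 1) scale. With a pseudocount of 0.1 it counts as 1 rise. Between genotypes 1 of 2 was higher and 1 lower at 0 hpf (median -0.03), where 8.85% and 6.70% of all counted genes were. At 6 hpf 1 of 4 was higher and 3 lower (median -2.20), where 38.2% and 20.8% were.

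Nodal ligands and their feedback inhibitors rose in both genotypes, from below 1 FPKM at 0 hpf in each. In Mybx1 they reached 1.92 to 6.34 FPKM at 6 hpf. With a mean FPKM of 5 asked, 5 genes of the list were counted in Mybx1 and 0 rose there, where 410 of 10284 genes did. All 10 matched genes of the list of Nodal inputs and cofactors were counted across the stages. In WT 6 rose and 3 fell, with lft1, a feedback inhibitor of Nodal, up 543-fold (97.0 to 21512), and with SMAD2, which carries the signal to the nucleus, down 5.06-fold (4.25 to 6.04), beside ACVR2A and gdf3. The fall of ACVR2A, -1.08 on the log2 scale, is -0.37 with median-ratio scaling. In Mybx1 4 rose, lft1, lft2, ndr1 and ndr2, and none fell, and the Nodal ligand ndr2 reached 6.34 FPKM there, a rise of 70.1-fold (12.1 to 2816), and 25.5 FPKM in WT. The Nodal ligand ndr1 was at 4.99 FPKM in Mybx1 and 3.62 in WT at 6 hpf. At 0 hpf 5 were counted and the receptor gene ACVR2A was lower in Mybx1, 2.06-fold (1.85 to 2.30). At 6 hpf SMAD2 and gdf3 were higher in Mybx1, SMAD2 5.15-fold (4.32 to 6.17), and foxh1, lft1, lft2, mixl1 and ndr2 were lower, lft1 27.1-fold (16.5 to 47.8). The difference of foxh1, -1.19, is -0.98 with TPM. The list median was 1.54 in WT and 0.39 in Mybx1 across the stages, -0.10 at 0 hpf and -0.86 at 6 hpf. For comparison, 24.2% of all counted genes rose and 41.1% fell in WT, and 7.67% rose and 7.10% fell in Mybx1. Between genotypes 8.85% of them were higher in Mybx1 and 6.70% lower at 0 hpf. At 6 hpf 38.2% were higher and 20.8% lower.

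The list of FGF and Wnt genes had a median of -2.64 between genotypes at 6 hpf, against -0.86 for the Nodal list. Both lists mix genes abundant in the egg, such as gdf3 (508 FPKM in WT) and CTNNB1 (122), with genes near 0 there. These medians therefore do not rank the signals. Nodal list genes below 1 FPKM in WT at 0 hpf differed by -1.85 (ndr2), -4.18 (lft1), -2.24 (lft2), -2.79 (mixl1) and 0.37 (ndr1). The FGF and Wnt list holds ligand genes and also genes that these signals induce, such as DUSP6 and AXIN2. Of 17 counted genes 15 rose in WT and none fell, with a median of 3.34. Over the same 17 genes, read by size whether or not counted in Mybx1 itself, 2 rose in Mybx1, DUSP6 and fgf17, and 1 fell, AXIN2, with a median of 0.09. Of all counted genes, 24.2% rose and 41.1% fell in WT, and 7.67% rose and 7.10% fell in Mybx1. DUSP6, a phosphatase gene induced by FGF, rose 2996-fold in WT (537 to 118389) to 216 FPKM and reached 2.08 FPKM in Mybx1, 104-fold lower (69.1 to 164). The ligand gene fgf17 rose 36.3-fold in Mybx1 (6.03 to 1479), from 1 read to a level of 3.76 FPKM, and AXIN2, a Wnt target, fell 2.17-fold there (1.70 to 2.78), a difference of -1.02 that is -0.94 with median-ratio scaling. At 6 hpf 13 of 17 were lower in Mybx1 and none higher, with a median of -2.64, where 20.8% of all counted genes were lower. At 0 hpf 2 of 9 were higher, ETV4 and TCF7, the latter 7.95-fold (2.40 to 41.3), and none was lower. Of all counted genes 8.85% were higher and 6.70% lower there. TCF7, at 0.402 FPKM in WT and 3.20 in Mybx1, was counted only through Mybx1, so its call supports no direction. With a mean FPKM of 5 asked, 0 of 6 were higher at 0 hpf, where 524 of 10182 genes were. The ligand genes fgf8a and wnt8a were not matched and are not analysed here.

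Genes of the paraxial mesoderm and tailbud, the tissue where tbx16 and msgn1 act, rose in WT in 16 of the 21 cases counted in either genotype and fell in none. Over these 21, 2 rose in Mybx1, her11 and ripply1, and HOXB7 fell, with medians of 2.62 in WT and -0.02 in Mybx1. The shares of all counted genes that rose were 24.2% in WT and 7.67% in Mybx1. The homeobox gene cdx4 rose 556-fold in WT (153 to 4594) to 91.2 FPKM and had 0.10 FPKM in Mybx1 at 6 hpf, 887-fold lower (159 to 35071). At 6 hpf 14 of 20 counted genes were lower in Mybx1 and none higher, with a median of -2.30, where 20.8% of all counted genes were lower. The somite gene ripply1, a repressor partner of T-box factors, rose 3.92-fold in Mybx1 (2.69 to 5.83), from 5.33 to 20.9 FPKM, against 41.3 in WT at 6 hpf. HOXB7 fell 5.24-fold (1.54 to 27.6).

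The same list held genes that, like msgn1, were above WT in Mybx1 at 0 hpf. Of 8 counted at 0 hpf 4 were higher, CYP26A1, HOXB7, mespbb and ripply1, and none was lower. The shares of all counted genes were 8.85% higher and 6.70% lower. HOXB7 (0.171 FPKM in WT and 3.37 in Mybx1) and mespbb (0.614 and 2.39) were counted only through Mybx1. Their calls therefore support no direction. CYP26A1, which breaks down retinoic acid, had 9.81 FPKM in WT at 0 hpf, and its 92.4 FPKM in Mybx1 was 9.42-fold higher (7.65 to 11.7). With median-ratio scaling mespbb, at 1.07, is at 0.95, and 1 gene was higher where a mean of 5 FPKM was asked. The list median at 0 hpf was 0.64.

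**Figure D4:**
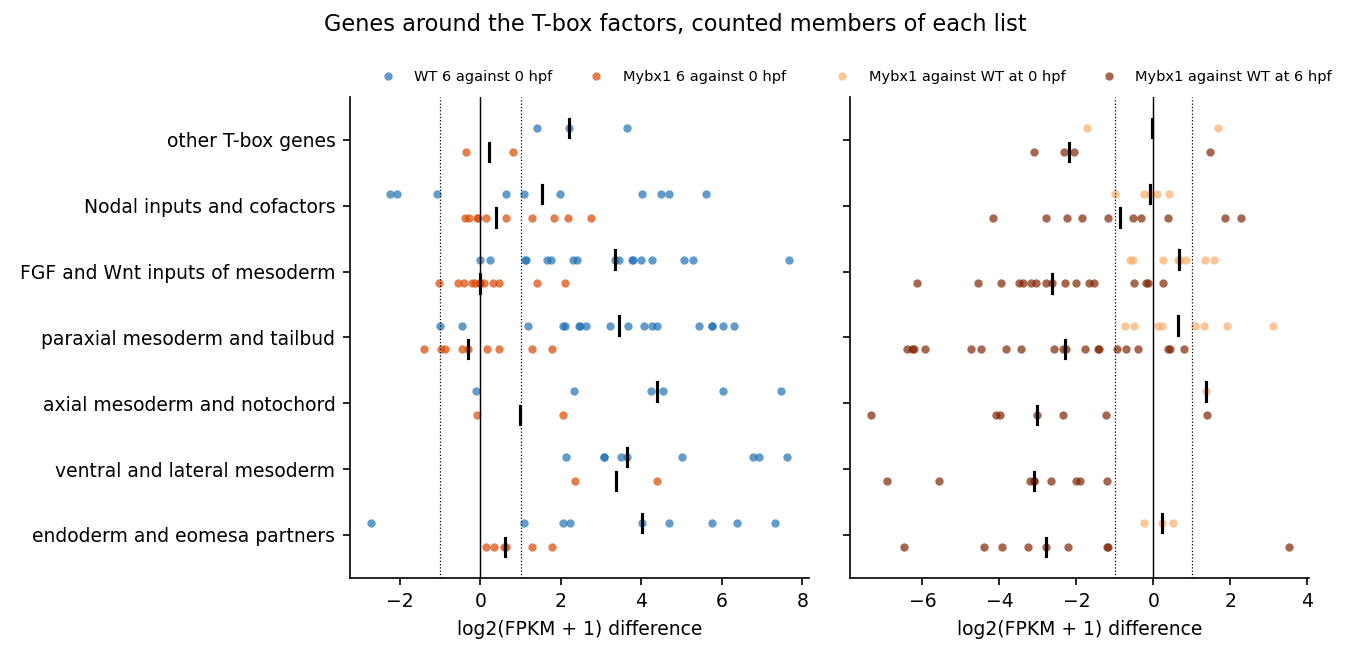
Difference on the log2(FPKM + 1) scale for the counted genes of 7 lists around the T-box factors (points), with the list median as a black bar, a solid line at 0 and dotted lines at 2-fold. Left, 6 against 0 hpf in WT (blue) and in Mybx1 (orange). Right, Mybx1 against WT at 0 hpf (light) and at 6 hpf (dark). Most WT stage changes lie right of the 2-fold line and most 6 hpf genotype differences left of it. The medians for paraxial mesoderm and tailbud are 3.44 in WT and -2.30 between genotypes at 6 hpf.

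Axial mesoderm genes, which include targets of tbxta, rose in 5 of 6 cases counted in either genotype in WT, namely FOXA2, GSC, chrd, noto and twist2. The shares of all counted genes that rose were 24.2% in WT and 7.67% in Mybx1. Over the same 6 genes 2 rose in Mybx1, FOXA2 and noto, and the notochord gene noto did so to 3.17 FPKM, at least 7.65-fold above 3 reads, where WT had 64.7. The BMP antagonist gene chrd was at least 1474-fold higher at 6 hpf than at 0 hpf in WT and 1765-fold lower in Mybx1 at 6 hpf (488 to 14581). At 6 hpf 6 of 7 counted genes were lower in Mybx1, where 20.8% of all counted genes were lower and 38.2% higher. The forkhead gene foxa was higher there, 2.67-fold (2.32 to 3.07), though with median-ratio scaling its difference goes from 1.39 to 0.65, and it was already 2.61-fold higher at 0 hpf (2.31 to 2.95).

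Ventral and lateral mesoderm genes rose in WT in 9 of 9 cases, where 24.2% of all counted genes rose. None of the 12 matched genes (0) reached 1 FPKM at 0 hpf in either genotype. They were therefore counted across the stages only through a 6 hpf library, and these counts support no direction. Over the same 9 genes 4 rose in Mybx1, GATA2, ved, vent and vox, and none fell, with medians of 3.65 in WT and 0.95 in Mybx1. In Mybx1 7.67% of all counted genes rose and 7.10% fell. The ventral repressor gene vox reached 224 FPKM in WT, a rise of 1684-fold (302 to 66549), and 25.5 FPKM in Mybx1, a rise of 92.5-fold (25.2 to 770). All 9 were lower in Mybx1 at 6 hpf, with a median of -3.09, where 20.8% of all counted genes were lower. The gene eve1 had a WT level of 121.0 FPKM at 6 hpf and 0 reads in Mybx1, a difference of -6.93 on the log2(FPKM + 1) scale. Its bound of at least 11.9-fold lower rests on 37 reads in WT, the smallest whole number that fits. With more reads behind the same level the bound would be higher, so it does not show a small difference. No member of the list was counted at 0 hpf.

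Of 9 endoderm genes and partners of eomesa, 8 rose in WT and nanog fell, 6.70-fold (6.14 to 7.33). In WT 24.2% of all counted genes rose and 41.1% fell. Over the same 9 genes GATA5, GATA6 and foxa3 rose in Mybx1 and none fell, with foxa3, a forkhead gene of the endoderm, up 52.0-fold (8.84 to 2100) to 2.58 FPKM. The endoderm regulator sox32 rose in WT at least 491-fold to 160 FPKM and had 0.82 FPKM in Mybx1 at 6 hpf, 196-fold lower (89.8 to 535). EOMES was at 70.3 FPKM in that library. At 6 hpf 8 of 9 were lower in Mybx1, where 20.8% of all counted genes were. The gene nanog was higher, 11.6-fold (10.7 to 12.7), where 38.2% of all counted genes were. With TPM 6 of 9 were lower, as pou5f3 goes from -1.20 to -0.98 and foxh1 from -1.19 to -0.98. The genes mixl1 and foxh1 are on the Nodal list as well. At 0 hpf 3 were counted and none passed 2-fold. With a mean FPKM of 5 asked, the rises counted in Mybx1 were 0 of 6 for FGF and Wnt genes, 1 of 4 for paraxial, 0 of 1 for axial and 1 of 1 for ventral mesoderm, and 0 of 3 for endoderm. Among all 10284 genes counted at that mean, 410 rose in Mybx1.

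The genes closest in profile to each member were found by Euclidean distance between log2(FPKM + 1) values over the 4 libraries, among 16219 named genes that reached an FPKM of 1. The profile of tbxta was closest to the keratin genes krt5 (distance 0.74) and krt92 (0.77) and to chrd (0.92). That of tbx16 was closest to fgfr4, an FGF receptor gene (0.33), the protocadherin gene PCDH1 (0.36) and the transferrin gene tfa (0.37). For TBR1 they were AANAT, an enzyme gene of melatonin synthesis (0.75), pmp22a (1.19) and the crystallin gene CRYGN (1.70), and AANAT was at 1.11 and 2.24 FPKM in WT and 39.8 and 23.0 in Mybx1.

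The profile of msgn1 had more distant neighbours, si:ch211-264f5.6 (1.31), the ephrin receptor gene epha2a (1.54) and EMG1, a ribosome assembly gene (1.75). The gene epha2a was at 1.24 and 114 FPKM in WT and at 19.5 and 17.1 in Mybx1, so that it too lay between the WT libraries in both Mybx1 libraries. EOMES had close neighbours in KAZN (0.26), SMS, the spermine synthase gene (0.30), and TMEM192, a lysosomal membrane protein gene (0.32). For tbx6 and the low EOMES identifier the nearest genes were weakly expressed, si:ch211-117m20.4, si:ch73-389o5.4 and si:dkey-285e18.6 for tbx6 (0.49 to 0.51).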

How the data were processed

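The authors deposited 1 table of FPKM values with a column for each of the 4 libraries. Columns of other samples numbered 0. Tools named in the submitters' processing notes, with no role, are HTSeq 0.6.1, TopHat2 2.0.12 and Bowtie2 2.2.3, and the build is GRCz10. The annotation, strand, FPKM formula and handling of multiply mapped reads are not given in the sources used here. Reads of overlapping or antisense genes therefore cannot be told apart. Since FPKM is a share of a library, it does not show a change in total RNA per embryo.

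Library totals and the smallest whole reads per gene were computed from steps in low FPKM values. At these totals 1 read gave a whole gene length, within 0.02, for 80.3% of 1181 low genes, and at 2 times the totals for 39.1%. The recovery was tested on simulated data. As lower limits, these reads sum to 88.8% to 93.3% of each total. Single-gene folds are FPKM ratios with exact conditional binomial (Clopper-Pearson) 95% intervals from these reads, and error bars are exact Poisson intervals. A fold against 0 reads is a bound against 3 reads. Reads carry no molecular identifiers, so intervals and bounds cover counting error only.

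Differences between libraries, on log2(FPKM + 1), have no replicate and no test. Calls needed a mean FPKM of 1 and 2-fold. Alternatives were pseudocounts of 0.1 and 5, no filter or a mean of 5, TPM and median-ratio scaling. Symbols came from a table of identifiers, which named 26099 of 31870 (81.9%). List genes were matched by symbol or RefSeq synonym. No coordinates or sequences are given. The members and the 7 gene lists and 5 marker lists were chosen with earlier results of these data known. Named were all members, T-box genes reaching 1 FPKM, the largest rise and fall of each list in a comparison, list members in counts of 5 or fewer where given, and the 3 nearest profiles. Brain markers and chromosomal neighbours were added to this rule after their values were seen, and 1 brain marker is not reported here by name. Computation used Python 3.11.15 with numpy 2.4.6, pandas 2.3.3 and scipy 1.17.1.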

Additional observations from a re-analysis of the deposited data

Results flagged for a closer look

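TBR1 moved in opposite directions across the stages in the genotypes, which was not tested as a difference. It rose in WT, from 0.31 to 2.45 FPKM, and went from 32.6 to 21.9 FPKM in Mybx1, a difference of -0.55 on the log2(FPKM + 1) scale that kept its sign under both pseudocounts and both scalings. The abundant EOMES identifier did the reverse. It fell in WT, from 44.0 to 5.67 FPKM, and went from 55.8 to 70.3 FPKM in Mybx1, a difference of 0.33 that also kept its sign under both pseudocounts and both scalings. This difference, too, was not tested, and both Mybx1 changes were short of 2-fold.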

How the results depend on the processing

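With 1 library per group, leaving out a replicate was not possible, and every value rests on a single library. No paired analysis was possible because the labels carry no replicate numbers. The count of members that rose in Mybx1 from 0 to 6 hpf was 1, tbx16, and became 0 with a pseudocount of 5 (log2 difference 0.78) and 0 with a mean FPKM of at least 5. The other 7 counts of members moved by no more than 1.5 times under the 6 alternatives. No member difference past 2-fold changed its sign under the 4 alternatives in pseudocount and scaling, and besides tbx16 in Mybx1 only TBR1 in WT lost its call, at 0.49 with a pseudocount of 5. Scaling shifted the all-gene median, from -0.57 to -0.80 with TPM and 0.16 with median-ratio scaling across the WT stages, and from 0.49 to 0.71 and -0.24 between genotypes at 6 hpf. Under TPM the Mybx1 stage median of the other T-box genes changed sign, from 0.22 to -0.18. A mean FPKM of at least 5 moved 16 of 96 list counts by over 1.5 times. The values of tbx6, and of tbxta in Mybx1, rest on few reads. The recovered library totals at 6 hpf were 6240685 in WT and 6042830 in Mybx1.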

Other observations

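The measured genes beside TBR1 and msgn1 on the chromosome differed by less than 2-fold between the 0 hpf libraries. Gene order was taken from the RefSeq table of assembly GRCz12tu, and these neighbours were looked up after the values of the members were seen. Next to tbr1b, the RefSeq gene with the earlier name tbr1, rbms1b, an RNA-binding protein gene, had 9.94 FPKM (WT) and 14.8 (Mybx1) at 0 hpf, and tank, a signalling adaptor gene, had 16.4 and 20.6. Next to msgn1, echdc3 had 12.5 and 11.6 FPKM, and the gene directly on the other side, which has only a clone-based name, had 206 and 321. At 6 hpf some were further apart. Near TBR1, WT and Mybx1 had 3.36 and 28.4 FPKM for tank, 2.88 and 19.5 for cd302, and 5.94 and 15.3 for rbms1b. Near msgn1 they had 34.1 and 4.37 for lrig3, but 2.52 and 6.77 for echdc3. The clone-named gene had 505.4 and 450.0 and mrps10 20.9 and 22.1. A link to the members was not tested. Of the 12 genes looked up beside TBR1 and msgn1, 3 on each side of both, 5 had no value. Genes beside tbxta and tbx16 were looked up too. Of these, kdf1b near tbxta had 2.33 FPKM in WT and 0.393 in Mybx1 at 0 hpf. The gene nudc, directly beside tbxta, had 164.9 and 170.5.

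Markers of muscle and blood were low at 0 hpf in both genotypes, and 1 marker of the ovarian follicle was not. Of 6 muscle markers the sum at 0 hpf was 1.34 FPKM in WT and 3.18 in Mybx1, and of 4 blood markers it was 0.077 and 0.66. Of 9 matched markers of the ovarian follicle the sum was 49.4 FPKM in WT and 83.3 in Mybx1, of which CYP17A1, a steroid synthesis enzyme, had 48.8 and 82.5. Of the follicle markers 5 were at 0 in WT and 4 in Mybx1 at 0 hpf. The part of these cells in the levels of TBR1 and msgn1 was not tested.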
